A study of Homo sapiens with 12 samples.

Results

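Interferon-stimulated genes (ISGs) were examined in HEK-293T cells, a human embryonic kidney cell line, in which subunits of the CCR4-NOT complex were knocked down. The 51 ISGs are a named list of genes that interferons are known to induce. They were found by gene symbol on the array, and the brightest spot stood for each gene. All 51 were found among 20042 named genes with a value on every array, and 20 of them had more than 1 spot.

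Interferons bind receptors at the cell surface and activate the kinases JAK1 and TYK2, which phosphorylate STAT proteins. The ISGF3 complex, in which STAT2 and IRF9 take part, then binds interferon-stimulated response elements (ISREs) in the promoters of ISGs. The products of ISGs sense foreign nucleic acids, block steps of viral replication or tune the response itself. CCR4-NOT removes the poly(A) tails of mRNAs and also acts on transcription, with CNOT1 as its scaffold and CNOT2 and CNOT3 bound to it.

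The cells carried a pINDUCER vector from which doxycycline (Dox) induces a miR30-based shRNA against CNOT1, CNOT2 or CNOT3 or, as a control, against firefly luciferase (Luci). The groups were CNOT1 +Dox and CNOT1 -Dox with 1 array each, CNOT2 +Dox and CNOT2 -Dox with 2 arrays each, CNOT3 +Dox and CNOT3 -Dox with 1 array each, and Luci +Dox and Luci -Dox with 2 arrays each. All cells thus contain an integrated vector, and each line was 1 stable clone, so that the clone and its hairpin cannot be told apart. Arrays with replicate number 1 were taken as the first experiment and those with number 2 as the second. The second Luci -Dox array is called untreated in its title and treated in its characteristics, and its title was followed. How far replicates are biological or technical is not settled by the labels, so p-values measure only the spread between these arrays.

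The deposited values are background-corrected, quantile-normalized log intensities, taken as log2 from their highest value of 15.98, with an equal median of 3.34 on all 12 arrays. The targeted mRNAs were lowest where their own shRNA was induced. CNOT1 was at 5.07 in CNOT1 +Dox against 7.23 in CNOT1 -Dox cells. CNOT2 was at 8.96 and 8.38 in CNOT2 +Dox against 9.86 and 9.72 in CNOT2 -Dox cells, and CNOT3 was at 6.80 in CNOT3 +Dox against 8.96 in CNOT3 -Dox cells. Replicates correlated with Pearson's r between 0.968 and 0.977 over all genes. Of the HEK-293 markers all 8 were measured, with mean levels between 5.55 (NES) and 14.2 (VIM). The 4 leukocyte markers measured had means of 2.46 (CD3E), 3.09 (PTPRC), 3.95 (CD68) and 4.29 (CD14). The 4 fibroblast markers had means between 2.66 (LUM) and 7.01 (COL1A1), and the 3 endothelial markers between 2.76 (CDH5) and 3.15 (VWF). Precision is limited by how few arrays there are.

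The promoters of ISGs were searched for the core of the ISRE. In the RefSeq promoter table of build GRCh38.p14, 40 of the 51 genes matched. IFIT2, IFITM2, OAS2, OASL, MX2, USP18, PARP10, TRIM22, PML, GBP2 and LY6E did not. The ISRE core, spelled GAAANNGAAA on either strand, was present between 250 bases before and 50 bases after the start in 26 (65.0%) of the 40 ISGs. It was present in 1255 (3.57%) of all 35116 promoters of that table. The STAT core TTCNNNGAA was present in 9 (22.5%) of the 40, against 7.66% of all promoters, and matches of one motif may share bases with matches of another. The promoters of 5 genes on which the results below turn are printed from 250 bases before to 20 bases after the start, with ISRE cores in capitals.
IFI44L: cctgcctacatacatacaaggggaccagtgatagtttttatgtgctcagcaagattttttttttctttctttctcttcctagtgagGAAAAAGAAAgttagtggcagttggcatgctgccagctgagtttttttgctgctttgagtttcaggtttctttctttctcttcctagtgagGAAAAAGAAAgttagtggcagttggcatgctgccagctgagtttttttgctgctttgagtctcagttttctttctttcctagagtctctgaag
IFITM1: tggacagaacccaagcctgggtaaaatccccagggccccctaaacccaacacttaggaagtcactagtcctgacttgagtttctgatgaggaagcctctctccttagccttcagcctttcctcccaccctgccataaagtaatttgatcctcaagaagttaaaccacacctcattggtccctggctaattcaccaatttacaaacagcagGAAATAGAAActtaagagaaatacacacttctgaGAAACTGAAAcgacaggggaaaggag
IFITM3: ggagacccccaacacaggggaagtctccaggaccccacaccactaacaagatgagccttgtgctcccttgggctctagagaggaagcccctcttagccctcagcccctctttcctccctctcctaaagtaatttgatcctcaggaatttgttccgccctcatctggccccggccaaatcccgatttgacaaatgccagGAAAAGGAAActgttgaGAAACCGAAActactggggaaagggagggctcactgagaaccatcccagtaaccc
BST2: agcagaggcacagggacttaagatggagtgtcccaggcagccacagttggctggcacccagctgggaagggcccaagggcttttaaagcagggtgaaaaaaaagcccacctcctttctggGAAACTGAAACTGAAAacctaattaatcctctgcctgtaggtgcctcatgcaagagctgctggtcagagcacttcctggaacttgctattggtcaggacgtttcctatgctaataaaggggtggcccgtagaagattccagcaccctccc
IFI35: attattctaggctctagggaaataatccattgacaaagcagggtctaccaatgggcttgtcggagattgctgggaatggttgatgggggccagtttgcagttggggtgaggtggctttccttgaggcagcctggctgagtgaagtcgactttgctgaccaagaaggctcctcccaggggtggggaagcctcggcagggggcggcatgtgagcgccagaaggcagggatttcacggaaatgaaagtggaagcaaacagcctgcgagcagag
They lie at chr1:78620198-78620467 on the plus strand (IFI44L), chr11:313790-314059 on the plus strand (IFITM1), chr11:320841-321110 on the minus strand (IFITM3), chr19:17405611-17405880 on the minus strand (BST2) and chr17:43006534-43006803 on the plus strand (IFI35). IFI44L has 2 cores, whose first bases lie 164 and 73 bases before the start. In IFITM1 they lie 40 and 6 and in IFITM3 52 and 35 bases before the start. The 2 cores of BST2, at 130 and 124 bases before the start, overlap each other. IFI35 has no ISRE core and 1 STAT core in the searched window. A match describes the letters of a promoter and not the binding of a factor.

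The brightness of a spot depends on its probe as well as on the mRNA, so levels of different genes are given without an order of mRNA amounts. In these cells 31 of the 51 ISGs had a mean level above the median of all spots, as did 67.8% of the 20042 named genes, and 37 passed the level filter of the first experiment, the 25th percentile of all genes at 2.96. The 14 ISGs below the filter included all 4 antiviral GTPases (MX1, MX2, GBP1 and GBP2), 3 of the 4 oligoadenylate synthetase genes (OAS1, OAS2 and OASL), RSAD2, RTP4, IFI44, IFI16, PARP14, SAMD9L and TRIM22. The brightest spots were those of SP100, a nuclear body protein, with a mean of 12.9, and of ADAR, the editing enzyme of double-stranded RNA, with 11.8. They were followed by the membrane proteins IFITM1, IFITM2 and IFITM3, which block the entry of viruses, with means of 10.96, 10.79 and 10.68. ADAR hardly varied, with levels between 11.70 and 12.01 on the 12 arrays and an SD of 0.09. The level of SP100 was 13.45 in CNOT1 +Dox, 13.41 in CNOT1 -Dox, 12.56 and 12.38 in CNOT2 +Dox, 12.88 and 13.02 in CNOT2 -Dox, 12.85 in CNOT3 +Dox and 13.24 in CNOT3 -Dox cells. In Luci cells SP100 was at 12.77 and 12.61 with and 12.81 and 12.84 without Dox, so that it was highest in the CNOT1 line.

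The dimmest spots were those of RSAD2 (2.49), GBP1 (2.52), SAMD9L (2.60), MX2 (2.66) and OAS1 (2.66), given as means over the 12 arrays. RSAD2, an enzyme that makes a chain-terminating nucleotide, ranged between 1.82 and 3.19 over the arrays. GBP1, a guanylate-binding protein, ranged between 2.11 and 3.22, MX2, a dynamin-like GTPase, between 2.14 and 3.45, and OAS1, which makes oligoadenylates that activate RNase L, between 2.17 and 3.31. Their ranges lay around the lower quartile of all spots, 2.54, on every array. SAMD9L, an antiviral and growth-restricting protein, was at 2.98 in CNOT1 +Dox, 2.52 in CNOT1 -Dox, 2.11 and 2.89 in CNOT2 +Dox, 2.06 and 1.94 in CNOT2 -Dox, 3.40 in CNOT3 +Dox and 4.11 in CNOT3 -Dox cells. In Luci cells it was at 1.87 and 2.13 with and 2.71 and 2.44 without Dox. Its highest level was that of CNOT3 -Dox cells.

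**Figure D1:**
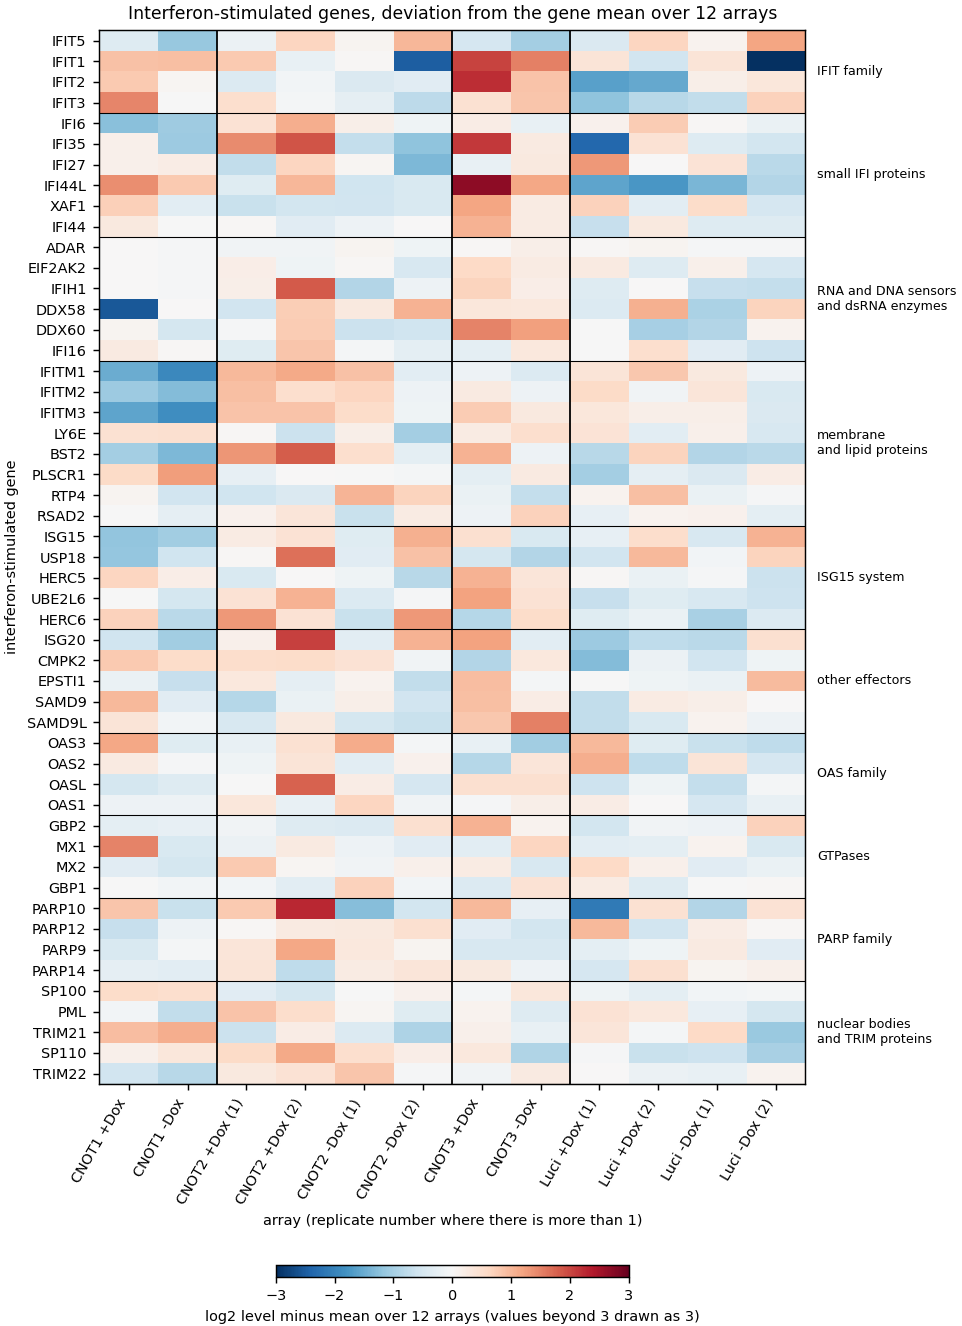
Deviation of each of the 51 ISGs from its own mean over the 12 arrays on the log2 scale, with genes in rows grouped by role and arrays in columns grouped by line, +Dox left of -Dox. The IFITM genes are below their means in both CNOT1 arrays, IFI44L is above its mean in the CNOT1 and CNOT3 lines and below it in the Luci line, and IFI35 is above its mean on all CNOT +Dox arrays.

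To see whether loss of a subunit changed the ISGs, each line with Dox was compared with the same line without Dox and with Luci +Dox cells in the first experiment. With 1 array per condition these differences have no test, and changes in mRNA per cell and in the share of responding cells cannot be told apart. Against its own line without Dox, CNOT1 +Dox cells had 7 of the 37 ISGs above the filter raised more than 2-fold, like 4.94% of all 15034 genes. Another 1 was more than 2-fold lower (3.63% of all genes). CNOT2 +Dox cells had 4 higher (4.48%) and 2 lower ISGs (3.39%). CNOT3 +Dox cells had 7 higher (5.91%) and 2 lower ISGs (4.34%). The median log2 difference of the 37 was 0.28 in CNOT1, 0.15 in CNOT2 and 0.47 in CNOT3 cells, against medians between 0.00 and 0.01 for all genes. In the second experiment 14 of the 37 were more than 2-fold higher in CNOT2 +Dox than in CNOT2 -Dox cells (8.86% of all genes) and 0 were lower, with a median difference of 0.78. The 2 pairs of CNOT2 arrays therefore gave different counts, 14 against 4.

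Against Luci +Dox cells, CNOT1 +Dox cells had 9 of the 37 more than 2-fold higher (11.4% of all genes) and 7 lower (10.1%). CNOT2 +Dox cells had 10 higher (6.74%) and 3 lower ISGs (4.24%). CNOT3 +Dox cells had 13 higher (10.4%) and 3 lower ISGs (9.32%). These 3 comparisons share the Luci +Dox array. In the second experiment 11 of the 37 were more than 2-fold higher in CNOT2 +Dox than in Luci +Dox cells (6.07% of all genes). For CNOT1 the count of higher ISGs was 24.3% of the 37, and their median difference against Luci +Dox was 0.08.

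Across the 4 pairs of a knock-down with its own line, 15 of the 37 ISGs were higher with Dox in every pair, against 12.9% of all genes. Another 10 were higher in 3 pairs (23.7% of all genes), 6 in 2 pairs (28.1%), 6 in 1 pair (23.1%) and 0 in none, while 12.2% of all genes were higher in no pair. The 15 were IFIT2, IFI35, IFI44L, IFIH1, IFITM1, IFITM2, IFITM3, ISG20, DDX60, PARP10, BST2, EPSTI1, PML, UBE2L6 and EIF2AK2. These are counts of signs, and the lowest of the 4 differences was only 0.02 for IFIT2, 0.05 for EIF2AK2 and 0.06 for IFIH1. At the other end it was 1.23 for PARP10 and 1.24 for IFI35. The 10 spots of EPSTI1 had mean CNOT differences between -0.14 and 0.655. The 2 CNOT2 pairs share no array, and 22 (59.5%) of the 37 were higher in both, against 29.4% of all genes. In the CNOT1 and CNOT3 pairs, which also share no array, 20 of the 37 were higher in both, against 28.9%. In single pairs, 25 of the 37 were higher with Dox in the CNOT1 line, 24 and 30 in the CNOT2 line and 29 in the CNOT3 line. The medians of all genes there were 0.01 (CNOT1), 0 and 0.02 (CNOT2) and 0.01 (CNOT3). The share of all genes that were higher in a single pair was not counted. In the Luci line, 21 of the 37 were higher on the first pair of arrays and 25 on the second, as many as in the CNOT1 line. The Luci medians of the 37 were 0.07 and 0.21, against 0 and 0.02 for all genes.

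**Figure D2:**
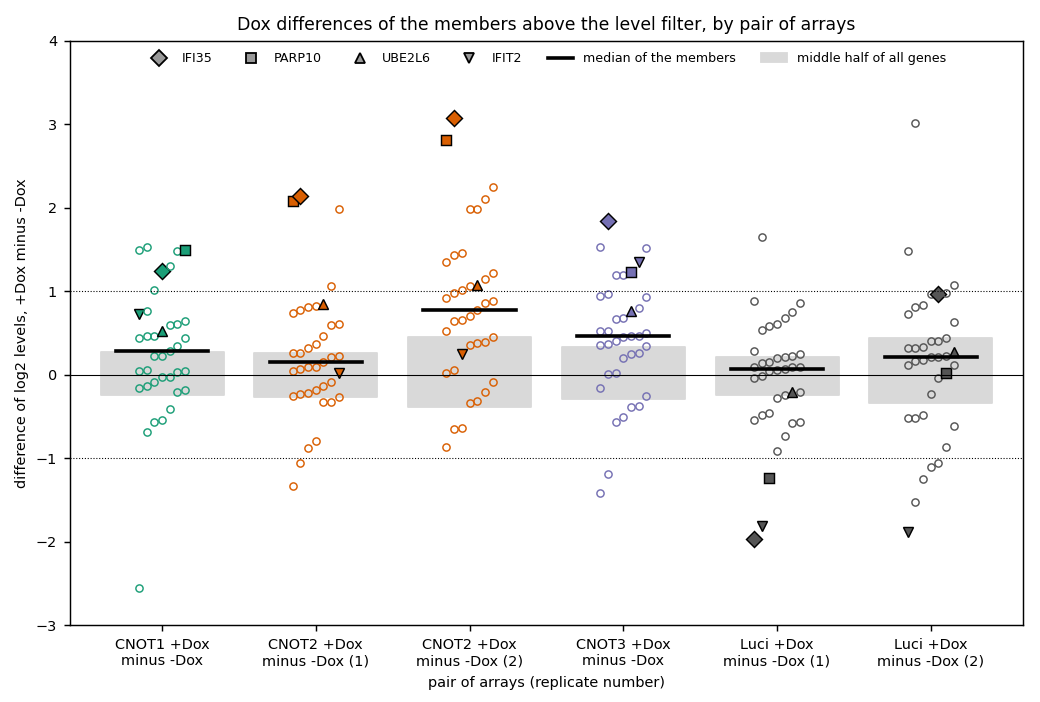
Differences of log2 levels, +Dox minus -Dox, of the 37 ISGs above the level filter for each pair of arrays (y axis), with 1 symbol per gene, the median of the ISGs as a black line and the interquartile range of all 15034 genes as a grey box. Medians lie at 0.28, 0.15, 0.78 and 0.47 in the CNOT pairs and at 0.07 and 0.21 in the Luci pairs, and IFI35 and PARP10 are above 1 in every CNOT pair.

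In the first experiment 11 ISGs differed by more than 2-fold from both controls, in one direction, for at least 1 subunit (9.53% of all genes). IFI35 and PARP10 were so in all 3 knock-downs. IFI35, a small interferon-induced leucine zipper protein, was at 5.29 in CNOT1 +Dox, 4.05 in CNOT1 -Dox, 6.56 and 7.02 in CNOT2 +Dox, 4.42 and 3.94 in CNOT2 -Dox, 7.25 in CNOT3 +Dox and 5.41 in CNOT3 -Dox cells. In Luci cells IFI35 was at 2.79 and 5.56 with and 4.76 and 4.59 without Dox. All 4 CNOT +Dox arrays were above their own lines without Dox, by log2 differences of 1.24, 2.14, 3.08 and 1.84, while the 2 Luci +Dox arrays lay on either side of the Luci -Dox arrays. PARP10, a mono-ADP-ribosyltransferase, was at 5.53 in CNOT1 +Dox, 4.04 in CNOT1 -Dox, 5.49 and 6.95 in CNOT2 +Dox, 3.41 and 4.14 in CNOT2 -Dox, 5.68 in CNOT3 +Dox and 4.45 in CNOT3 -Dox cells. In Luci cells PARP10 was at 2.58 and 5.16 with and 3.81 and 5.14 without Dox. It was higher with Dox in each CNOT pair, by 1.49, 2.08, 2.81 and 1.23, and its difference was -1.23 and 0.02 in the Luci pairs. The second, dimmer spot of PARP10, with a mean of 2.61, had a mean difference of only 0.01 over the 4 CNOT pairs, compared with 1.90 for the brighter spot. That dimmer spot was at 2.04 in CNOT1 +Dox against 3.96 in CNOT1 -Dox cells, and higher with Dox in the other CNOT pairs.

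Both genes had their lowest level of all arrays on the first Luci +Dox array. Against the second Luci +Dox array, the CNOT2 +Dox array of the same experiment was higher by 1.46 for IFI35 and by 1.79 for PARP10, compared with 3.77 and 2.91 in the first experiment.

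BST2, tetherin, holds budding virions at the cell surface. It was at 6.28 in CNOT1 +Dox, 5.94 in CNOT1 -Dox, 8.62 and 9.12 in CNOT2 +Dox, 7.80 and 7.01 in CNOT2 -Dox, 8.34 in CNOT3 +Dox and 7.15 in CNOT3 -Dox cells. In Luci cells it was at 6.47 and 7.96 with and 6.42 and 6.48 without Dox. It passed 2-fold against both controls in CNOT3 cells, and the second Luci +Dox array was also raised over Luci -Dox, by 1.48. Its 2 spots had mean CNOT differences of 1.12 and 0.96. ISG20, an exonuclease of single-stranded RNA, was at 7.26 in CNOT1 +Dox, 6.82 in CNOT1 -Dox, 8.02 and 9.93 in CNOT2 +Dox, 7.55 and 8.91 in CNOT2 -Dox, 9.08 in CNOT3 +Dox and 7.56 in CNOT3 -Dox cells. In Luci cells ISG20 was at 6.77 and 7.11 with and 7.05 and 8.36 without Dox. ISG20 was higher with Dox in each CNOT pair and lower in both Luci pairs, and it passed 2-fold against both controls in CNOT3 cells.

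Of the IFIT genes, which lie side by side on chromosome 10 and encode RNA-binding tetratricopeptide proteins, IFIT2 and IFIT3 passed 2-fold against both controls. IFIT2 was at 4.67 in CNOT1 +Dox, 3.94 in CNOT1 -Dox, 3.47 and 3.80 in CNOT2 +Dox, 3.45 and 3.55 in CNOT2 -Dox, 6.09 in CNOT3 +Dox and 4.74 in CNOT3 -Dox cells. In Luci cells it was at 2.26 and 2.35 with and 4.07 and 4.23 without Dox. Its levels in the Luci line did not overlap, with differences of -1.81 and -1.88 between +Dox and -Dox, and the 2 CNOT2 pairs differed by 0.02 and 0.25. The second spot of IFIT2, with a mean of 2.89, had a mean CNOT difference of -0.40, opposite to the 0.59 of the brighter spot. That spot was higher with Dox in the CNOT3 pair, at 3.37 against 2.65, and lower in the CNOT1, CNOT2 and Luci pairs. IFIT3 was at 4.61 in CNOT1 +Dox, 3.13 in CNOT1 -Dox, 3.64 and 3.07 in CNOT2 +Dox, 2.86 and 2.36 in CNOT2 -Dox, 3.60 in CNOT3 +Dox and 3.97 in CNOT3 -Dox cells. In Luci cells IFIT3 was at 1.93 and 2.30 with and 2.39 and 3.82 without Dox, so that it passed 2-fold against both controls only in CNOT1 cells.

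IFIT1, which binds RNA with a foreign cap, had the largest SD between the line terms of a fit to all 12 arrays. It was at 7.99 in CNOT1 +Dox, 8.02 in CNOT1 -Dox, 7.89 and 6.88 in CNOT2 +Dox, 7.15 and 4.63 in CNOT2 -Dox, 9.14 in CNOT3 +Dox and 8.62 in CNOT3 -Dox cells. In Luci cells IFIT1 was at 7.49 and 6.53 with and 7.50 and 3.52 without Dox. The lowest levels were those of the second CNOT2 -Dox and Luci -Dox arrays, whereas the pairs of the first experiment differed with Dox by -0.03 (CNOT1), 0.74 (CNOT2), 0.52 (CNOT3) and -0.01 (Luci). Without Dox in the first experiment, the level of IFIT1 minus that in Luci cells was 0.52 for CNOT1, -0.35 for CNOT2 and 1.12 for CNOT3, compared with 2.17, 0.79 and 2.53 for IFI44L. IFIT5 was between 6.44 and 8.76, with its 2 lowest levels in the CNOT1 and CNOT3 lines without Dox.

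IFI44L, a protein of the IFI44 family, passed 2-fold against both controls in CNOT3 cells. It was at 5.06 in CNOT1 +Dox, 4.45 in CNOT1 -Dox, 3.29 and 4.65 in CNOT2 +Dox, 3.07 and 3.21 in CNOT2 -Dox, 6.34 in CNOT3 +Dox and 4.81 in CNOT3 -Dox cells. In Luci cells it was at 2.08 and 1.91 with and 2.28 and 2.77 without Dox, below all arrays of the other lines. Its neighbor on chromosome 1, IFI44, was below the filter and ranged between 2.17 and 3.89, with its highest level in CNOT3 +Dox cells. The other small IFI genes, IFI6, IFI27 and XAF1, did not pass 2-fold against both controls.

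HERC6, an E3 ligase related to the ISG15 ligase HERC5, passed it in CNOT1 and CNOT2 cells. It was at 4.04 in CNOT1 +Dox, 2.54 in CNOT1 -Dox, 4.67 and 3.80 in CNOT2 +Dox, 2.68 and 4.66 in CNOT2 -Dox, 2.51 in CNOT3 +Dox and 3.92 in CNOT3 -Dox cells. In Luci cells it was at 3.00 and 3.15 with and 2.39 and 2.94 without Dox. The difference was 1.50 in CNOT1, -1.41 in CNOT3 and 1.99 and -0.86 in the CNOT2 pairs, so the replicates of CNOT2 went in opposite directions. SAMD9, which restricts poxviruses, was at 3.94 in CNOT1 +Dox, 2.64 in CNOT1 -Dox, 2.11 and 2.77 in CNOT2 +Dox, 3.16 and 2.39 in CNOT2 -Dox, 3.87 in CNOT3 +Dox and 3.20 in CNOT3 -Dox cells. In Luci cells it was at 2.24 and 3.22 with and 3.15 and 2.99 without Dox. It passed 2-fold against both controls in CNOT1 cells, while its 2 CNOT2 pairs differed by -1.05 and 0.38.

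Downward, 2 ISGs passed 2-fold against both controls. DDX58, which encodes the RNA sensor RIG-I, was at 1.95 in CNOT1 +Dox, 4.50 in CNOT1 -Dox, 3.92 and 5.24 in CNOT2 +Dox, 4.80 and 5.55 in CNOT2 -Dox, 4.83 in CNOT3 +Dox and 4.81 in CNOT3 -Dox cells. In Luci cells DDX58 was at 4.08 and 5.57 with and 3.54 and 5.17 without Dox. The level in CNOT1 +Dox cells was thus its only one below 3.54. The second spot of DDX58 was also lower in that pair, at 3.82 in CNOT1 +Dox and 4.91 in CNOT1 -Dox cells. In the CNOT3 pair that spot was at 5.16 with and 2.85 without Dox. Its mean CNOT difference was 0.04 against -0.93 for the brighter spot. OAS3, the largest oligoadenylate synthetase, was at 4.19 in CNOT1 +Dox, 2.66 in CNOT1 -Dox, 2.80 and 3.49 in CNOT2 +Dox, 4.13 and 2.97 in CNOT2 -Dox, 2.79 in CNOT3 +Dox and 1.99 in CNOT3 -Dox cells. In Luci cells OAS3 was at 4.00 and 2.66 with and 2.35 and 2.25 without Dox. It passed the threshold downward in CNOT2 cells of the first experiment, with a difference of -1.33, and had a difference of 0.52 in the second. The second spot of OAS3, with a mean of 2.59, was lower with Dox in both CNOT2 pairs, at 1.98 against 3.05 and 2.13 against 2.70. That spot was also lower in the CNOT1 pair, at 2.62 against 3.40, and in the CNOT3 pair, at 2.33 against 3.01. Its mean CNOT difference was -0.775, compared with 0.38 for the brighter spot.

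**Figure D3:**
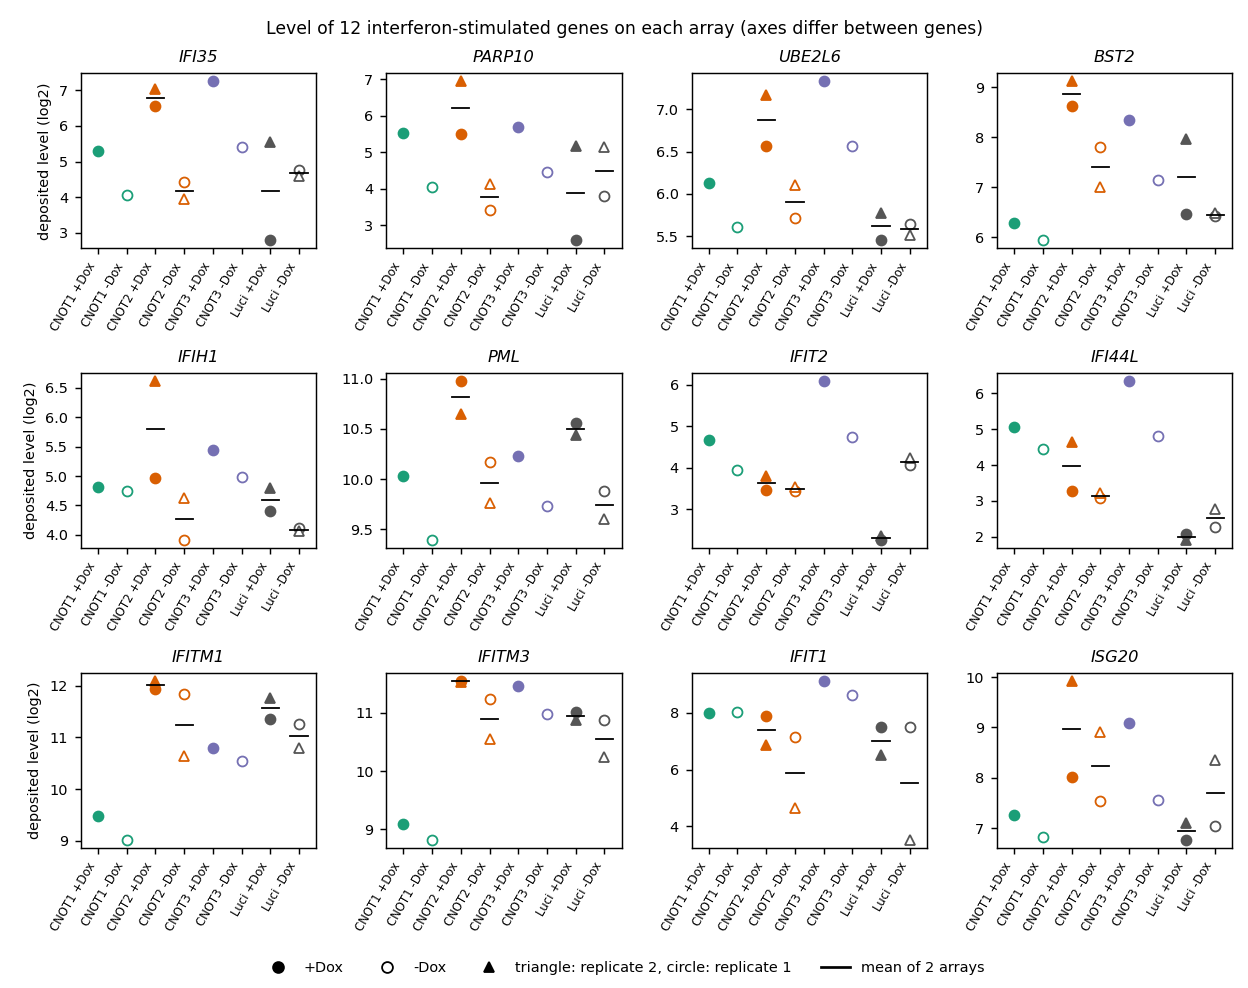
Deposited log2 levels of 12 ISGs (y axes, which differ between genes) on each array, by group along the x axis, with filled symbols for +Dox, open symbols for -Dox, circles for replicate 1, triangles for replicate 2 and a line at the mean of 2 arrays. IFI35 and UBE2L6 are higher with Dox in each CNOT line, IFIT2 is lower with Dox in the Luci line, and IFITM1 and IFITM3 have their lowest levels in the CNOT1 line.

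For CNOT2 and Luci both experiments were fitted together with limma. Of the 35 ISGs among the 15031 genes tested, 0 passed an adjusted p of 0.05 (Benjamini-Hochberg over all genes) between CNOT2 +Dox and CNOT2 -Dox cells, as did 0 of all genes (0%). In this comparison 6 ISGs had an unadjusted p under 0.05 and were higher (2.65% of all genes), and 1 was lower (1.36%). By size, 5 ISGs were more than 2-fold higher (3.86% of all genes) and 1 lower (1.88%). The median log2 difference of the 35 was 0.47, against 0.01 for all genes, and it was 0.29 without the second CNOT2 +Dox array and 0.19 without the second CNOT2 -Dox array. The count of 6 fell to 1 without the second CNOT2 +Dox array, and to 3 without the second CNOT2 -Dox array.

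The 5 higher ISGs were IFI35, PARP10, IFIH1, IFIT1 and BST2, and the lower one was RTP4. IFI35 averaged 6.79 ± 0.33 in CNOT2 +Dox and 4.18 ± 0.34 in CNOT2 -Dox cells (SD, n = 2 each), a log2 difference of 2.61 with a standard error (SE) of 0.81 in limma. PARP10 had a difference of 2.45 (SE 0.94), and BST2 of 1.47 (SE 0.54). IFIH1, which encodes the RNA sensor MDA5, averaged 5.80 ± 1.17 in CNOT2 +Dox and 4.27 ± 0.51 in CNOT2 -Dox cells (SD, n = 2 each), a difference of 1.53 (SE 0.56). RTP4, a chaperone of membrane receptors, averaged 2.48 ± 0.13 in CNOT2 +Dox and 3.84 ± 0.25 in CNOT2 -Dox cells (SD, n = 2 each), a difference of -1.36 (SE 0.34). All adjusted p-values of these comparisons in limma were 1. UBE2L6, the E2 enzyme that conjugates ISG15, and PML, the organizer of nuclear bodies, are named after their values were seen. They had differences of 0.96 (SE 0.32) and 0.85 (SE 0.29), also with an adjusted p of 1 in limma.

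Between CNOT2 +Dox and Luci +Dox cells, again 0 of the 35 ISGs and 0% of all genes passed the adjusted threshold in limma. Here 9 ISGs had an unadjusted p under 0.05 and were higher (3.25% of all genes), 1 was lower (2.11%), and 10 were more than 2-fold higher (4.46%). The 9 became 1 without the second CNOT2 +Dox array and 5 without the first Luci +Dox array. The lowest p among the ISGs belonged to IFIT2, at 3.64 ± 0.23 in CNOT2 +Dox cells, against 2.31 ± 0.06 in Luci +Dox cells (SD, n = 2 each), with a difference of 1.33 (SE 0.26) and an adjusted p of 0.638 in limma. UBE2L6 followed with 1.26 (SE 0.32, adjusted p 0.757 in limma) and SP110, a nuclear body protein, with 1.20 (SE 0.35, adjusted p 0.824 in limma). ISG20 had a difference of 2.04 (SE 0.78) and CMPK2, a mitochondrial nucleotide kinase, of 1.28 (SE 0.43). This comparison shares the CNOT2 +Dox arrays with the one above.

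Among the 37 ISGs above the filter, both CNOT2 +Dox arrays were above both CNOT2 -Dox arrays for 15, where 15.5% of all genes were so, and below them for 2 (14.3%). Both were above both Luci +Dox arrays for 17, against 17.1% of all genes.

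Between Luci +Dox and Luci -Dox cells, 0 of the 35 ISGs and 0% of all genes passed the adjusted threshold in limma. At an unadjusted p under 0.05, 1 ISG was higher (1.46% of all genes) and 1 lower (1.32%). The higher was PML, at 10.50 ± 0.08 in Luci +Dox and 9.74 ± 0.20 in Luci -Dox cells (SD, n = 2 each). The lower was IFIT2, with averages of 2.31 ± 0.06 in Luci +Dox and 4.15 ± 0.11 in Luci -Dox cells (SD, n = 2 each) and a difference of -1.85 (SE 0.26, adjusted p 1.00 in limma). The difference of PML with Dox was 0.85 in the CNOT2 line and 0.76 (SE 0.29) in the Luci line. The difference between the Dox effects of the CNOT2 and the Luci line was tested in its own contrast, where 0 of the 35 ISGs and 0% of all genes passed. In this contrast 2 ISGs had an unadjusted p under 0.05 and a higher effect in the CNOT2 line, against 1.4% of all genes (IFIT2 with 1.98, SE 0.37, and IFI35 with 3.11, SE 1.15), and RTP4 had a lower one (0.945%). The count of 2 lay between 1 and 4 without 1 array. It was 1 without the first or second CNOT2 -Dox, the second CNOT2 +Dox or the second Luci -Dox array, and 4 without the first CNOT2 +Dox or the second Luci +Dox array.

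A limma fit to all 12 arrays gave the CNOT1, CNOT2 and CNOT3 lines a shared effect of Dox, so that the single arrays of CNOT1 and CNOT3 are assumed to vary like the others. Of 38 ISGs among 15033 genes tested, 0 passed the adjusted threshold, like 0% of all genes. At an unadjusted p under 0.05, 8 ISGs were higher (4.59% of all genes) and 0 lower, and the count without any 1 of the CNOT2 and Luci arrays lay between 6 and 11. The median difference of the 38 ISGs was 0.40, against 0.01 for all genes, and 30 of the 38 were above 0 (51.8% of all genes). More than 2-fold higher were 3 ISGs (1.49% of all genes), namely IFI35 with 2.08 (SE 0.54), PARP10 with 1.90 (SE 0.61) and BST2 with 1.12 (SE 0.36). UBE2L6 had 0.80 (SE 0.20) and PML 0.71 (SE 0.18), both with an adjusted p of 0.513 in limma, and IFI44L had 0.95 (SE 0.31). IFITM3, with 0.51 (SE 0.21), and IFIT2, with 0.59 (SE 0.23), completed the 8. Among them, IFI44L was below the level filter on the 8 CNOT2 and Luci arrays alone. It entered this fit through its levels in the CNOT1 and CNOT3 lines. The mean CNOT difference of the 3 spots of PML ranged from -0.36 to 0.71, the highest being that of the brightest spot. Its dimmer spots had mean levels of 3.83 and 3.81.

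By role, the shared effect was above 0 for 4 of 4 tested IFIT genes, 5 of 5 small IFI genes and 5 of 5 genes of the ISG15 system (ISG15, UBE2L6, HERC5, HERC6 and USP18). It was above 0 for 3 of 5 sensors and enzymes of double-stranded RNA, 4 of 7 membrane proteins, 3 of 4 genes of nuclear bodies and TRIM proteins, 2 of 3 PARP genes, 3 of 4 other effectors and the 1 OAS gene tested. These counts by role have no test. ADAR and SP100, the brightest spots, were not among the 8, and SP100 had a shared effect of -0.33 (SE 0.16). The effect minus that of Dox in Luci cells passed the adjusted threshold for 0 of the 38 ISGs and 0% of all genes in limma. At an unadjusted p under 0.05 it was above 0 for 5 ISGs (1.71% of all genes), IFIT2, IFI44L, IFI35, IFIT3 and PARP10, and below 0 for none of the 38. Of these, IFI44L and IFIT3 were below the level filter on the 8 CNOT2 and Luci arrays alone. They entered this fit through their levels in the CNOT1 and CNOT3 lines. The count of 5 was 2 without the first Luci +Dox array and 2 without the second Luci -Dox array, and 3 without the second Luci +Dox or the second CNOT2 -Dox array. The median of this difference over the 38 was 0.16, with 25 above 0 (50.6% of all genes), and it was -0.13, with 18 of 37 above 0, without the first Luci -Dox array. IFIT2 had the lowest of these p-values, with a difference of 2.43 (SE 0.39, adjusted p 0.929 in limma).

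To compare the clones themselves, the line terms of the same fit, which stand for cells without Dox, were set against the Luci line. Of the 38 ISGs, 2 were lower in the CNOT1 line past the adjusted threshold, while 2.31% of all genes passed it in either direction. More than 2-fold lower were 10 ISGs (9.23% of all genes), and 5 were more than 2-fold higher (8.33%). The CNOT1 and CNOT3 lines have arrays of the first experiment only, whereas the Luci term rests on both. A block for the replicate number left 7 ISGs more than 2-fold lower in the CNOT1 line and 4 higher, as were 1328 and 1224 of all 15033 genes. With the replicate number as a block, 5 ISGs were called in the CNOT1 line, where 599 of all 15033 genes were called as higher and 678 as lower. These ISGs were IFITM1 (-2.20), IFITM2 (-1.69) and IFITM3 (-2.04) as lower and IFI44L (1.98) and PLSCR1 (1.41) as higher. IFI44L passed the level filter of this fit only through its levels in the CNOT1 and CNOT3 lines. IFITM1 was at 9.48 in CNOT1 +Dox, 9.02 in CNOT1 -Dox, 11.94 and 12.10 in CNOT2 +Dox, 11.84 and 10.64 in CNOT2 -Dox, 10.80 in CNOT3 +Dox and 10.55 in CNOT3 -Dox cells. In Luci cells IFITM1 was at 11.36 and 11.77 with and 11.26 and 10.80 without Dox. The line difference was -2.06 (SE 0.42, adjusted p 0.0440 in limma). IFITM3 was at 9.10 in CNOT1 +Dox, 8.82 in CNOT1 -Dox, 11.55 and 11.53 in CNOT2 +Dox, 11.23 and 10.55 in CNOT2 -Dox, 11.45 in CNOT3 +Dox and 10.98 in CNOT3 -Dox cells. In Luci cells IFITM3 was at 11.02 and 10.87 with and 10.87 and 10.24 without Dox, and its line difference was -1.85 (SE 0.32, adjusted p 0.0271 in limma). Both CNOT1 arrays lay below all 10 other arrays for both genes.

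IFITM2, which lies beside them on chromosome 11, was at 9.70 in CNOT1 +Dox, 9.48 in CNOT1 -Dox, 11.70 and 11.29 in CNOT2 +Dox, 11.44 and 10.63 in CNOT2 -Dox, 11.05 in CNOT3 +Dox and 10.64 in CNOT3 -Dox cells. In Luci cells IFITM2 was at 11.35 and 10.67 with and 11.15 and 10.34 without Dox. Its line difference of -1.35 (SE 0.41) had an adjusted p of 0.130 in limma, although its CNOT1 arrays were also its 2 lowest. Within the CNOT1 line, the difference of +Dox minus -Dox was 0.46 for IFITM1, 0.22 for IFITM2 and 0.28 for IFITM3, on 1 pair of arrays. Other ISGs with a line difference of more than 2-fold downward in CNOT1 cells included IFI6, a mitochondrial inhibitor of apoptosis, with -1.29 (SE 0.38). ISG15, the ubiquitin-like modifier, had -1.49 (SE 0.64). The rest were IFIT5 (-1.49), USP18 (-1.29), ISG20 (-1.10), EPSTI1 (-1.07) and IFI35 (-1.04). Within the first experiment, CNOT1 -Dox minus Luci -Dox was -1.09 for IFI6, -1.25 for IFIT5 and -0.57 for ISG15. For USP18, ISG20, EPSTI1 and IFI35 it lay between -0.71 (IFI35) and -0.23 (ISG20). In the other direction PLSCR1, a phospholipid scramblase, had 1.21 (SE 0.36), and IFI44L had 1.76 (SE 0.46), with adjusted p-values of 0.120 and 0.0890 in limma. IFIT1 (2.06), TRIM21 (1.14) and CMPK2 (1.04) were also more than 2-fold higher. Within the first experiment, CNOT1 -Dox minus Luci -Dox was 0.52 for IFIT1, 0.50 for TRIM21 and 1.12 for CMPK2. The call of IFITM1 and of IFITM3 was lost, with adjusted p-values of 0.126 and 0.0887 in limma, without the first Luci -Dox array. Both calls were also lost without the second Luci -Dox array (0.125 and 0.0595), the first CNOT2 +Dox array (0.0755 and 0.0560) or the second (0.0782 and 0.0557), and the call of IFITM1 without either Luci +Dox array (0.0581 and 0.0583).

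In the CNOT2 line 0 of the 38 ISGs and 0% of all genes differed from the Luci line past the adjusted threshold in limma, with 2 ISGs higher (2.05% of all genes) and 1 lower (1.7%) at an unadjusted p under 0.05. In the CNOT3 line 1 ISG was higher past the adjusted threshold, where 1.09% of all genes passed it in either direction. This was IFI44L, with a line difference of 2.58 (SE 0.46, adjusted p 0.0413 in limma). On the 8 CNOT2 and Luci arrays alone IFI44L was below the level filter. It entered this fit through its levels in the CNOT1 and CNOT3 lines. Its levels in Luci cells, between 1.91 and 2.77, lay around the lower quartile of all spots, 2.54. More than 2-fold higher were 3 ISGs (6.46% of all genes), IFI44L, IFIT1 with 2.94 (SE 1.31) and the helicase gene DDX60 with 1.38 (SE 0.48), and 2 were lower (7.61%). The call of IFI44L was lost without any single one of the 4 Luci arrays or either CNOT2 -Dox array, with adjusted p-values between 0.0629 and 0.135 in limma. The SD between the 4 line terms was largest for IFIT1 (1.32), IFI44L (1.16) and IFITM3 (1.08), where that of IFIT1 includes the low second arrays without Dox, which only the CNOT2 and Luci lines have.

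**Figure D4:**
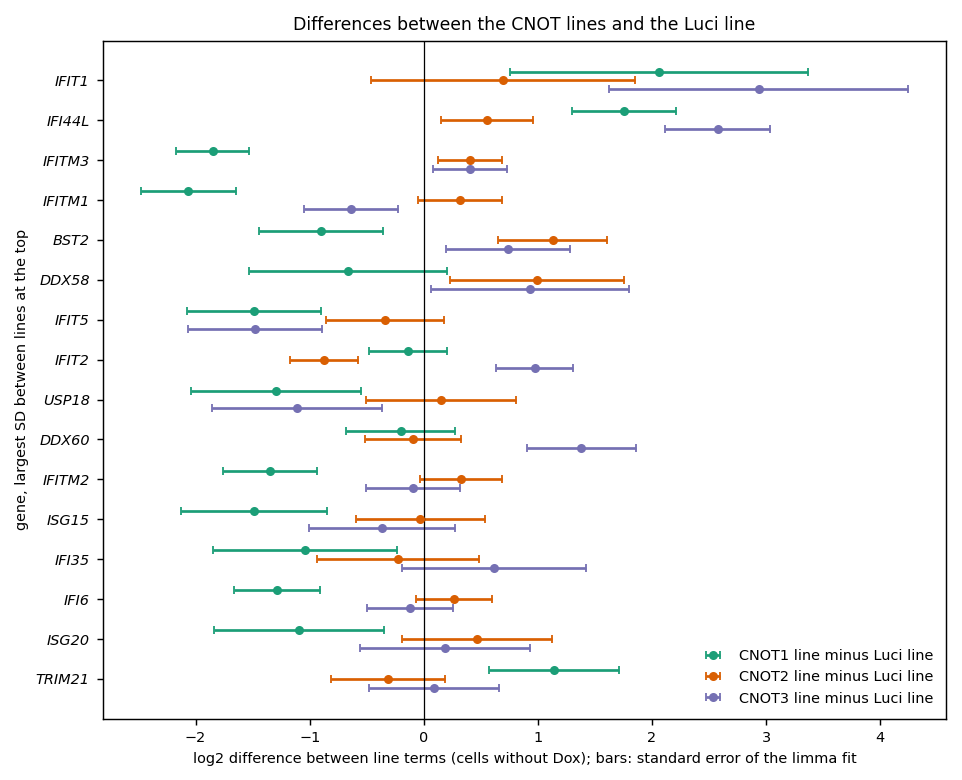
Log2 differences between the line terms of the CNOT lines and that of the Luci line (x axis) for the 16 ISGs with the largest SD between lines (y axis), as points with standard errors of the limma fit to 12 arrays. IFITM3 and IFITM1 have differences of -1.85 and -2.06 in the CNOT1 line, and IFI44L has 2.58 in the CNOT3 line.

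The other genes of the interferon pathway were read on the same arrays. Of 21 ligand genes, 17 were measured and 1 passed the filter, with mean levels between 2.27 and 3.25. IFNB1, interferon beta, ranged between 2.04 and 3.86. Single arrays were higher for IFNG, interferon gamma, with 6.56 on the second CNOT2 -Dox array, 4.52 in CNOT1 -Dox cells and 3.94 on the first CNOT2 +Dox array, and for IFNA8, with 6.01 in CNOT1 +Dox cells. The 6 receptor genes all passed the filter, with means between 6.53 and 9.51, and 0 of the 6 were called in the limma fits of the Dox effects and of the lines. Of 11 signal transducers measured, 0 passed the adjusted threshold for the shared Dox effect in limma. IRF9, the DNA-binding subunit of ISGF3, had a shared effect of 0.71 (SE 0.29). The largest shared effects were those of TMEM173, which encodes the adaptor STING, with 1.34 (SE 0.19, adjusted p 0.214 in limma), and of MAVS, the mitochondrial adaptor of RNA sensors, with 0.75 (SE 0.24). IRF1 and JAK1 had effects of -0.58 and -0.12, and the other 6 transducers lay between 0.06 (TYK2) and 0.56 (IRF7).

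IRF7, the transcription factor that amplifies interferon production, was at 6.68 in CNOT1 +Dox, 5.92 in CNOT1 -Dox, 2.21 and 2.74 in CNOT2 +Dox, 2.15 and 2.51 in CNOT2 -Dox, 8.17 in CNOT3 +Dox and 6.99 in CNOT3 -Dox cells. In Luci cells IRF7 was at 3.64 and 2.70 with and 3.81 and 2.39 without Dox. It was the 1 transducer called between lines, higher in the CNOT1 line by 2.92 (SE 0.55, adjusted p 0.0351 in limma) and in the CNOT3 line by 4.20 (SE 0.55, adjusted p 0.0111 in limma). On the 8 CNOT2 and Luci arrays alone IRF7 was below the level filter. It entered this fit through its levels in the CNOT1 and CNOT3 lines. The relation of IRF7 to the line differences of IFI44L was not tested. Of the 8 HEK-293 markers, 2 were called as lower than in the Luci line in the CNOT1 line, 1 in the CNOT3 line and 0 in the CNOT2 line. NEFM, a neurofilament gene, had a difference of -4.51 in the CNOT1 line and one of -5.93 in the CNOT3 line, and NEFL one of -3.32 in the CNOT1 line, all past the adjusted threshold in limma. The other markers were not called and went in both directions, such as KRT8 with 1.40 and KRT18 with -0.63 in the CNOT1 line. The part of such differences between clones in the levels of the ISGs was not tested. The 4 negative regulators SOCS1, SOCS3, PIAS1 and PTPN2 had 0 calls in these fits.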

How the data were processed

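RNA of HEK-293T clones was labeled with Cy3 and hybridized to single-color Agilent arrays, 1 sample per array. According to the methods, the authors took log mean spot signals, corrected the background with NormExp on negative control spots and quantile-normalized them with limma. The deposited log2 values, 1 per spot for 62976 spots without a detection call, were used as they are. A gene symbol was given for 37051 spots. Probe accessions of 48 of the 51 members matched current RefSeq transcripts, not those of IFI27, MX2 and BST2, and DDX58 is now named RIGI. Each comparison kept genes whose mean over its arrays reached the 25th percentile. limma 3.58.1 in R 4.3.3 was fitted with no replicate block and no intensity trend, to 8 arrays (4 group means) and to 12 arrays (4 lines, a shared Dox effect of the CNOT lines and one of the Luci line). Benjamini-Hochberg adjustment ran over all genes, with a threshold of 0.05. The fits were tested on simulated data with independent errors, no effect of the replicate number and changes only in genes above the median level. That test therefore does not show how many changes the fits miss on these arrays. The members and lists were chosen with earlier results of these data known. Values on every array are given for members that differed by more than 2-fold from both controls in one direction, for those past a limma threshold, for the 5 with the highest and the 5 with the lowest mean level, and for the 3 with the largest SD between lines. Ranges stand for ADAR and 4 dim spots. Alternatives changed the block, the trend, the filter, the spots of a gene, a floor on low values, the label of 1 Luci array, the control array and the replicates used.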

Additional observations from a re-analysis of the deposited data

Results flagged for a closer look

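In 4 ISGs the arrays of the CNOT2 line and those of the Luci line moved in opposite directions with Dox, every +Dox array lying on one side of both -Dox arrays of its line, as in 2.92% of all 20042 genes. These 4 are of all 51 ISGs, of which 3 are below the level filter of the fit. RTP4 averaged 2.48 in CNOT2 +Dox and 3.84 in CNOT2 -Dox cells, and 3.50 in Luci +Dox and 2.88 in Luci -Dox cells. Its difference between the Dox effects was -1.98 (SE 0.48), with an adjusted p of 1 in limma. IFIT3 averaged 3.36 in CNOT2 +Dox and 2.61 in CNOT2 -Dox cells, and 2.12 in Luci +Dox and 3.10 in Luci -Dox cells, a difference of 1.74 between the effects. For IFI44L this difference was 1.36, and for SAMD9L it was 1.08. On these 8 arrays IFIT3, IFI44L and SAMD9L were below the level filter, so their differences were not tested in that fit. In the fit to 12 arrays, the shared Dox effect of the CNOT lines minus that of the Luci line was 1.48 (SE 0.53) for IFI44L and 1.64 (SE 0.66) for IFIT3, both with an adjusted p of 1.00 in limma.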

How the results depend on the processing

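Directions of 23 differences of named ISGs did not turn in any of 353 alternatives. These 23 were picked for being more than 2-fold in comparisons of knock-down cells or called between lines, so a turn was unlikely in advance. Of the alternatives 331 kept their side of the threshold, 21 lost the call and 1 gained it. The only calls were those of IFITM1 and IFITM3 in the CNOT1 line and IFI44L in the CNOT3 line. All 21 losses fell on these calls, and most of the 331 concern differences that had no call to lose. In the first experiment, averaging the spots of a gene gave 4 instead of 7 ISGs higher in CNOT1 +Dox than in CNOT1 -Dox cells, and 0 instead of 2 lower in CNOT3 +Dox than in CNOT3 -Dox and 1 instead of 3 lower than in Luci +Dox cells. A floor on low values left 1 instead of 2 lower in CNOT2 +Dox than in CNOT2 -Dox cells. The second CNOT2 arrays gave 14 higher and 0 lower than CNOT2 -Dox, and 0 lower than Luci +Dox cells. Against Luci -Dox cells 0 ISGs were lower in CNOT3 +Dox cells. A filter at the 50th percentile left 18 ISGs, with 2 (CNOT2 +Dox against CNOT2 -Dox), 3 (against Luci +Dox), 1 (shared effect) and 1 (CNOT3 line) more than 2-fold higher and 0 called in the CNOT3 line. With the replicate block, 5 ISGs were called in the CNOT1 line, where 599 of all 15033 genes were called as higher and 678 as lower. In the CNOT3 line 7 ISGs were then more than 2-fold higher, as were 850 of all genes. With replicate block and intensity trend, 2 ISGs (PARP10 and PML) were called for the shared effect, where 57 of all genes were called as higher and 20 as lower. In the CNOT1 line 7 ISGs were called, where 1147 of all genes were called as higher and 1201 as lower. In the CNOT3 line 7 ISGs and 850 of all genes were more than 2-fold higher. The replicate block called 0 ISGs in both comparisons of CNOT2 +Dox cells, as without it. Arrays with the same number correlated in their deviations from the group means with r between 0.359 and 0.606 over 6 pairs of groups, with 2 numbers, and the labels do not say what a number marks. Without a filter, or with averaged spots, 1 ISG was called in the CNOT1 line, and averaged spots gave 5 more than 2-fold higher in the CNOT3 line. With the Luci array grouped by its characteristics, 0 ISGs were called in the CNOT1 or CNOT3 line, 5 were more than 2-fold lower in the CNOT1 line and 5 more than 2-fold higher in the CNOT3 line. Leaving out 1 array at a time, calls were between 0 and 2 in the CNOT1 line and between 0 and 1 in the CNOT3 line. ISGs more than 2-fold higher were then between 5 and 10 for CNOT2 +Dox against CNOT2 -Dox, between 7 and 12 against Luci +Dox, between 2 and 6 for the shared effect, between 3 and 5 in the CNOT3 line, and those lower in the CNOT1 line between 5 and 10. The causes of these shifts were not tested. Levels near the lower quartile of all spots limit what can be read from the 14 ISGs below the filter, and of 20 ISGs with several spots 7 had 1 sign of the mean CNOT difference on all of them.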
